A study of Mus musculus with 6 samples.

Results

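The 9 genes Cd36, Fabp4, Fabp5, Lpl, Gpihbp1, Meox2, Tcf15, Pparg and Angptl4 of the route by which heart capillaries take up fatty acids were described in RNA of the mouse cardiac side population (SP), heart cells that pump out the DNA dye Hoechst. They were chosen by symbol from the 50600 genes of the count table, and all 9 were counted and tested. Freshly sorted SP cells were sequenced from 3 wild-type (wt) pools of strain C57BL/6NRj and 3 pools of C57BL/6Flt3Ltml/mx mice on a C57BL/6N background, named flt3L-/- because they were bred to lack the ligand of the receptor tyrosine kinase Flt3. Each pool held the hearts of 4 mice aged 8 to 12 weeks, and the cells were depleted of cardiomyocytes and erythrocytes before sorting. A wt and an flt3L-/- sort shared each of 3 sorting dates, and these pairs are numbered 1 to 3 by date. The study asked how gene expression of SP cells differed between the genotypes.

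Lipoproteins of the blood carry triglycerides that heart muscle burns as fuel. Lipoprotein lipase (Lpl) splits them on the capillary wall, where Gpihbp1 anchors the enzyme and Angptl4 inhibits it. The freed fatty acids enter endothelial cells with help of Cd36 and are bound inside by the carriers Fabp4 and Fabp5. Meox2 and Tcf15 are partner transcription factors of heart capillary endothelium that drive genes of this route, and Pparg is a nuclear receptor activated by fatty acids whose known targets include Cd36, Fabp4, Lpl and Angptl4.

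The libraries held 24370913 to 31145519 counts, so that 3 counts were 0.0963 to 0.123 CPM (counts in 1000000), and the lowest count of any of the 9 genes in a library was 769. Reads on Flt3l, the targeted gene, were not fewer in the libraries labelled flt3L-/-. They stood at 8.66, 10.8 and 12.1 CPM in wt 1 to 3 and at 13.6, 12.4 and 14.4 CPM in flt3L-/- 1 to 3, where CPM are scaled by TMM factors, and the fitted log2 fold change was 0.37 ± 0.20 (SE, n = 3 pairs, edgeR adjusted p = 0.973). The counts do not show which part of the gene the reads lie in, so every direction below is that of the libraries labelled flt3L-/-. All 12 pan-endothelial markers were above 1 CPM in all 6 libraries, among them Pecam1, which encodes CD31, at 872 to 1523 CPM. The methods name the complete SP and a Sca1+/CD31- fraction as sorted populations, and the sample labels name the cardiac SP without such a fraction. The 6 markers of the SP and its sort, such as the dye pump gene Abcg2 at 147 to 274 CPM, were also above 1 CPM throughout. Fibroblast markers summed to between 4136 and 21139 CPM, with Dcn at 2410 to 10542 CPM, so the libraries were not of endothelial cells alone. In such pools, fewer cells of a type and less RNA per cell cannot be told apart.

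In GRCm38 the lipolysis genes lie at chr8:68880491-68907448 (Lpl, ENSMUSG00000015568, plus strand), chr15:75596628-75599481 (Gpihbp1, ENSMUSG00000022579, plus strand) and chr17:33773750-33781830 (Angptl4, ENSMUSG00000002289, minus strand). Cd36 (ENSMUSG00000002944, minus strand) spans chr5:17781690-17888801. The carrier genes are neighbours on chromosome 3, Fabp5 (ENSMUSG00000027533, plus strand) at chr3:10012548-10016607 and Fabp4 (ENSMUSG00000062515, minus strand) at chr3:10204088-10208576, with 187480 bases and 6 counted genes between them. The regulators lie at chr12:37108540-37179534 (Meox2, ENSMUSG00000036144, plus strand), chr2:152143561-152149097 (Tcf15, ENSMUSG00000068079, plus strand) and chr6:115360951-115490399 (Pparg, ENSMUSG00000000440, plus strand). No exon base of the 9 genes was shared with another annotated gene.

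Fabp4 and Fabp5 come from one gene family, and their coding sequences are shown because reads must tell them apart for their levels to be read separately. The first 120 coding bases of each, which begin at the start codon, are printed from the annotated transcripts, with the bases that were identical in the alignment of both in capitals.
Fabp4: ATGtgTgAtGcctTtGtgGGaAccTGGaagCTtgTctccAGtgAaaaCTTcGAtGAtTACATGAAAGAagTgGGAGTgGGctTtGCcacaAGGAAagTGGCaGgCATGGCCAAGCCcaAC
Fabp5: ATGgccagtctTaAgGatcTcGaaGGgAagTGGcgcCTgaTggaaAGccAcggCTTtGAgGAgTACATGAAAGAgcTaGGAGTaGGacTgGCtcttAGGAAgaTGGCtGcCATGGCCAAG
Over the whole coding sequences, 396 bases in Fabp4 and 405 in Fabp5 with 4 coding exons each, 240 of 396 aligned bases (60.6%) were identical and the longest identical run was 12 bases. No stretch as long as a read of 81 bases was shared between both mRNAs.

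Fabp5 does share such stretches with other loci. Of the 907 windows of 81 bases in its mRNA, 99 (10.9%) also occurred in the processed pseudogenes Gm6166 or Gm14328, which were named after their values were seen. Reads with equally good hits were placed at random by the authors, and the counts on Gm6166 (335 to 722 a library) came to 25.4% of those on Fabp5 over the 6 libraries, and those on Gm14328 (165 to 408) to 12.9%. A further copy, Fabp5l2, held 4 to 17 counts. Together the copies held 39.8%, 38.4% and 37.6% of the Fabp5 count in wt 1 to 3 and 40.4%, 39.1% and 38.2% in flt3L-/- 1 to 3, a nearly constant share. With their reads added, Fabp5 stood at 68.8 to 164.1 CPM instead of 49.2 to 118.8, while its genotype difference stayed at 0.25 on the log2 scale. Whether the reads on the copies came from Fabp5 mRNA was not tested. In Lpl, 65 of 4035 windows (1.61%) recurred elsewhere, and in the other 7 genes none did.

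The RefSeq table of promoters (build GRCm38.p6) held entries for Cd36, Meox2 and Pparg, 3 of the 9 genes. Those of the fatty acid receptor Cd36 and of the regulator Meox2 are shown as the 250 bases before a start site, at chr5:17835897-17836146 (minus strand, a start within the outer bounds of the gene) and chr12:37108290-37108539 (plus strand). Capitals mark 3 motifs searched on both strands: the E-box CANNTG, bound by factors of the class of Tcf15, the homeobox core TAAT, and AGGTCA, the core element of nuclear receptors.
Cd36: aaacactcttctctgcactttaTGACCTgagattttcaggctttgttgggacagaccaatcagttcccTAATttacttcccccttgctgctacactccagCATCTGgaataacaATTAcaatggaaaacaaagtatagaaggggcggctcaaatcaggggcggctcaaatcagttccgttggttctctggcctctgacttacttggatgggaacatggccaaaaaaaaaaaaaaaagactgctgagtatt
Meox2: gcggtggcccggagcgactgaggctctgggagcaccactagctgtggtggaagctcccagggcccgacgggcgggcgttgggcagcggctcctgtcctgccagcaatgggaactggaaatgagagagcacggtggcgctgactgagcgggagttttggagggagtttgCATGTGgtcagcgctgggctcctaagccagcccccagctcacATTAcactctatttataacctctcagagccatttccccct
The Cd36 window held 1 E-box, 2 homeobox cores and 1 AGGTCA, and the Meox2 window 1 E-box, 1 homeobox core and no AGGTCA. Among 32851 promoter windows of the same length, 66.2% held an E-box, 54.9% a homeobox core and 14% an AGGTCA, so the E-box and the homeobox core were found in most windows. A direct repeat of AGGTCA with 1 base between its copies occurred in 11 of them (0.0335%) and in neither window shown. These matches are letters in a window and not measured binding.

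Per length, Cd36 was among the most abundant mRNAs of the SP. Levels between genes were compared in TPM, read counts divided by the gene's annotated exon bases and scaled to a total of 1000000 per library. Cd36 lay between 3344 and 6051 TPM with a median of 5005, and had rank 10 among protein-coding genes. Ranks here and below are those of the mean TPM over the libraries. Fabp4 followed with 1061 to 2473 TPM (median 1728, rank 44) and Gpihbp1, the anchor of the lipase, with 337 to 775 TPM (median 583, rank 157). These genes kept their order in 6 of 6 libraries. The ranges of Cd36 and Fabp4 did not meet, nor did those of Fabp4 and Gpihbp1.

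The other 6 genes formed a closer series. Tcf15 ranged from 93.2 to 488 TPM with a median of 317, and Lpl from 103 to 353 with a median of 189. Pparg lay between 77.6 and 166 TPM (median 110) and Meox2 between 81.2 and 131 TPM (median 86.7). Lower still were Fabp5 with 39.6 to 78.9 TPM (median 60.2) and Angptl4 with 24.9 to 67.6 TPM (median 46.4, rank 2958). Several neighbours in this order did not differ beyond their spread. Gpihbp1 was above Tcf15 in 5 of 6 libraries, Tcf15 above Lpl in 4, Pparg above Meox2 in 4 and Fabp5 above Angptl4 in 5. Over all exon bases, Lpl was above Pparg, and Meox2 above Fabp5, in 6 of 6 libraries.

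The order depended on the length used, at the top and further down. An annotated transcript with a retained intron makes the whole Fabp4 gene exonic, 4489 bases, whereas its protein-coding transcript has 896 bases. With the length of the longest protein-coding transcript, a choice made after the values were seen, Fabp4 was at 4109 to 9782 TPM and above Cd36 (2730 to 5046 TPM) in 6 of 6 libraries. Fabp5 was then at a mean of 168 TPM and Lpl at 421 TPM. By this length the whole range of Fabp5 (111 to 225 TPM) lay above that of Meox2 (62.8 to 103 TPM). Lpl was then above Tcf15 in 5 of 6 libraries. By either length Fabp4 far exceeded Fabp5, by 26.8 to 31.3 times over all exon bases and by 37.2 to 43.5 times over the coding transcripts. Its count was 33.7 to 39.5 times that of Fabp5, or 24.1 to 28.5 times with the reads of the copies added to Fabp5.

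**Figure D1:**
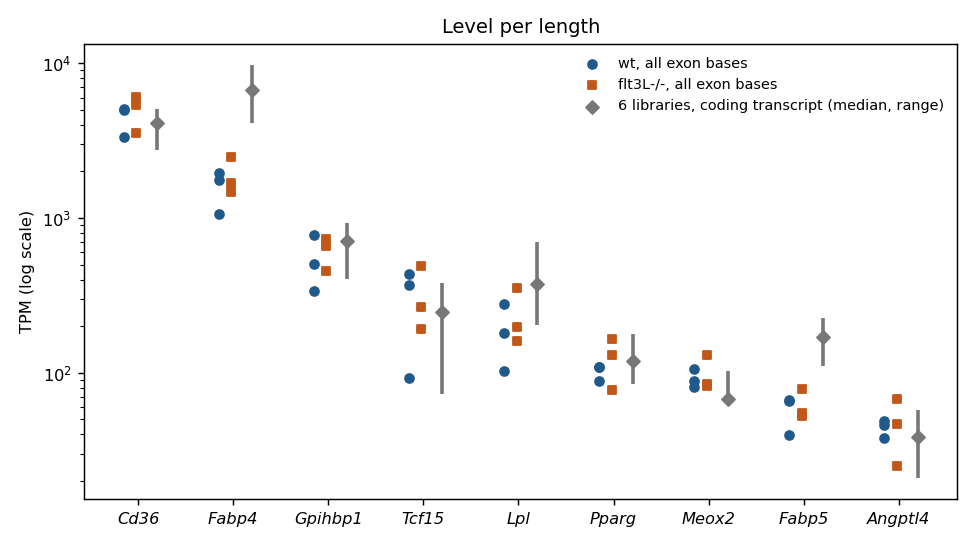
Level per length (TPM, log axis) of the 9 genes, ordered by their mean over all exon bases; points are the single wt and flt3L-/- libraries, and grey diamonds with lines give the median and range of the 6 libraries when the longest protein-coding transcript sets the length. Cd36 leads over all exon bases, and Fabp4 (median 6727 TPM) leads over the coding transcripts.

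None of the 9 genes was called between the genotypes, as none of the 13475 genes tested was (0% with an adjusted p under 0.05 in edgeR's quasi-likelihood test with Benjamini-Hochberg adjustment). The study itself reported genes under this threshold, nearly all lower in flt3L-/-, from an edgeR quasi-likelihood test with the date as covariate. None of the 9 was among them. Its calls were not reproduced here, where the smallest adjusted p of edgeR was 0.973, and the reason was not tested. With DESeq2, 21 genes (0.156%) were called and none of them was one of the 9. At an unadjusted p under 0.05 edgeR had 484 genes (3.59%), of which 149 (1.11%) were higher and 335 (2.49%) lower in flt3L-/-, again without any of the 9, whose unadjusted p ran from 0.181 to 0.832. Without pair 2, the pair in which all 9 were lower in flt3L-/-, 4 of them (Cd36, Fabp4, Tcf15 and Pparg) were higher at an unadjusted edgeR p of 0.0240 to 0.0436, as 233 of 13111 genes (1.78%) were at p under 0.05, and their adjusted p was 0.591 to 0.654. Leaving out the pair of opposite direction favours such values, so no conclusion is drawn from them. Without pair 1 or without pair 3, none of the 9 had an unadjusted p under 0.05. All 9 fitted log2 fold changes lay above 0, against 50% of all genes, with a median of 0.34 beside −0.00027 over all genes. The same was true of 10 of the 12 pan-endothelial markers. The 95% interval of each of the 9 genes held 0, and the groups overlapped for each of them, whereas they did not overlap for 6.45% of all genes.

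Lpl, the lipase, stood at 376.0, 649.8 and 1067 CPM in wt 1 to 3 and at 1335, 620.2 and 874.5 CPM in flt3L-/- 1 to 3. The highest and the lowest value were those of the same date, flt3L-/- 1 and wt 1. Group means were 698 ± 348 CPM in wt and 943 ± 362 CPM in flt3L-/- (SD, n = 3), and the log2 fold change was 0.47 ± 0.47 (SE, edgeR adjusted p = 0.973). Its 95% interval allowed from 0.589-fold to 3.25-fold. Within pairs the log2 differences were 1.83, −0.067 and −0.29, so the value above 0 came from 1 date, and without pair 1 the fitted value was −0.18.

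Gpihbp1, which holds the lipase on the capillary surface, had a similar profile. It stood at 299.5, 441.8 and 726.4 CPM in wt and at 673.3, 430.8 and 714.1 CPM in flt3L-/-. The lowest value was wt 1, both libraries of pair 2 lay above it and below the other 3, and the differences in pairs 2 and 3 were −0.036 and −0.025, beside 1.17 in pair 1. The log2 fold change was 0.36 ± 0.29 (SE, edgeR adjusted p = 0.973, 95% interval 0.757-fold to 2.19-fold), and it was −0.031 without pair 1.

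Angptl4, the secreted inhibitor of the lipase, was at 56.5, 59.8 and 49.0 CPM in wt and at 59.9, 32.6 and 101.1 CPM in flt3L-/-. Its wt values lay close together, and both extremes were flt3L-/- libraries. The SD was 5.56 CPM about a mean of 55.1 in wt and 34.5 CPM about 64.6 in flt3L-/- (n = 3). Its log2 fold change was the smallest of the 9, at 0.087 ± 0.39 (SE, edgeR adjusted p = 0.988), and turned to −0.39 without pair 3.

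Cd36, the fatty acid receptor, stood at 4182, 6149 and 6628 CPM in wt and at 6967, 4708 and 9171 CPM in flt3L-/-. It was lowest in wt 1 and highest in flt3L-/- 3, and the groups overlapped. Means were 5653 ± 1296 CPM in wt and 6949 ± 2232 CPM in flt3L-/- (SD, n = 3), a log2 fold change of 0.28 ± 0.28 (SE, edgeR adjusted p = 0.973). The interval ran from 0.729-fold to 2.01-fold, and the pairs differed by 0.74, −0.39 and 0.47.

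Fabp4, the more abundant carrier, was at 1659, 2719 and 3239 CPM in wt and at 2746, 2437 and 4686 CPM in flt3L-/-. As for Cd36, wt 1 was lowest and flt3L-/- 3 highest. Its log2 fold change of 0.37 ± 0.24 (SE, edgeR adjusted p = 0.973, 95% interval 0.843-fold to 1.98-fold) had the smallest unadjusted p of the 9, 0.181. The pairs differed by 0.73, −0.16 and 0.53.

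Fabp5, the second carrier, stood at 49.2, 80.5 and 87.3 CPM in wt and at 70.5, 68.9 and 118.8 CPM in flt3L-/-. As for Fabp4, the lowest value was wt 1 and the highest flt3L-/- 3. The log2 fold change was 0.25 ± 0.19 (SE, edgeR adjusted p = 0.973, 95% interval 0.836-fold to 1.69-fold), with pair differences of 0.52, −0.22 and 0.44.

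Meox2, the homeobox factor, was at 66.8, 85.4 and 77.0 CPM in wt and at 72.0, 71.7 and 130.6 CPM in flt3L-/-. The value of flt3L-/- 3 stood above the other 5, which lay between 66.8 and 85.4 CPM. Its log2 fold change of 0.21 ± 0.23 (SE, edgeR adjusted p = 0.973) turned to −0.072 without pair 3.

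Tcf15, the bHLH partner of Meox2, varied most, with a highest CPM 5.14 times its lowest. It stood at 125.5, 145.9 and 33.5 CPM in wt and at 172.5, 96.4 and 79.6 CPM in flt3L-/-. Both libraries of the third date were below all 4 of the earlier dates. Between genotypes the log2 fold change was 0.37 ± 0.37 (SE, edgeR adjusted p = 0.973, 95% interval 0.658-fold to 2.54-fold), and it was −0.069 without pair 3.

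Pparg, the nuclear receptor, was at 90.4, 111.4 and 118.8 CPM in wt and at 176.5, 84.7 and 162.9 CPM in flt3L-/-. The 2 highest values were flt3L-/- libraries, and so was the lowest. Its log2 fold change was 0.34 ± 0.29 (SE, edgeR adjusted p = 0.973, 95% interval 0.757-fold to 2.13-fold), with pair differences of 0.96, −0.40 and 0.46.

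**Figure D2:**
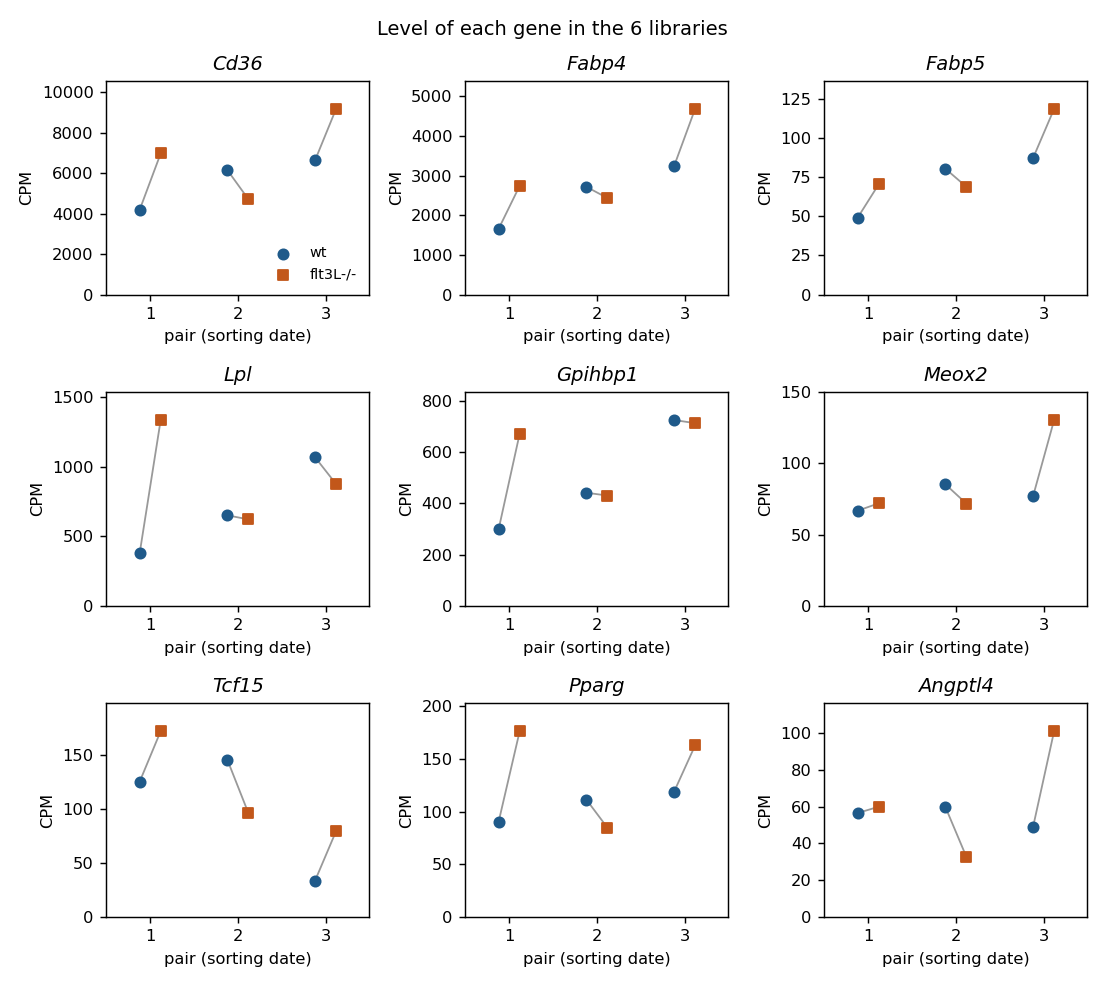
CPM (TMM-scaled, linear axis from 0) of the 9 genes in the wt (circles) and flt3L-/- (squares) library of each sorting date, joined by a line. Every gene is higher in flt3L-/- at pair 1 and lower at pair 2; Lpl and Gpihbp1 are also lower at pair 3.

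**Figure D3:**
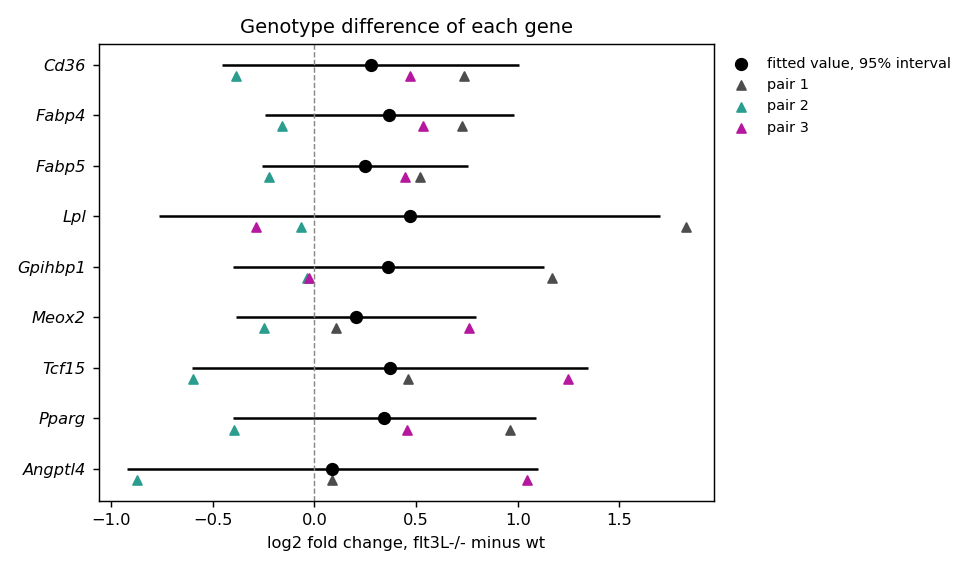
Fitted log2 fold change between flt3L-/- and wt with its 95% interval (black) and the difference within each pair (triangles). All fitted values lie above 0 and all intervals include it.

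The difference between the genotypes varied over the 3 pairs in a like way for most of the 9 genes. Each date holds a single pair of pools, so the date, the pools and their cells cannot be told apart. In pair 1 all 9 were higher in flt3L-/- (54.1% of all genes were), with a median log2 difference of 0.73. In pair 2 none was higher (50.4% of all genes), with a median of −0.25, so all 9 were higher in pair 1 and lower in pair 2, as 29.4% of all genes were. In pair 3, 7 of 9 were higher (51.2% of all genes), with a median of 0.47. The profile of up, down and up over the pairs was shared by these 7 and by 15.8% of all genes, and no member was higher in every pair, as 14.2% of all genes were. The 9 genes were measured in the same 6 libraries and are not independent of each other.

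Markers of cell types also differed over the same pairs. The summed pan-endothelial markers differed by 0.42, −0.28 and 0.11 on the log2 scale (8258 to 11027 CPM over the libraries), and the summed capillary markers by 0.37, −0.30 and 0.030. Fibroblast markers went the other way in pairs 1 and 3, by −1.27, 0.043 and −1.06, and ranged from 8641 to 21139 CPM in wt and from 4136 to 12602 CPM in flt3L-/-. All 9 fibroblast markers had fitted values below 0. Of these, 4 had an unadjusted edgeR p under 0.05, and none was called. Of all genes, 2.49% were lower in flt3L-/- at such a p. Pericyte and smooth muscle markers differed by −0.66, 0.16 and −0.78, and 2 of these 10 had such a p. The part of these cells in the values of the 9 genes was not tested. Adipocytes, which also express Cd36, Fabp4, Lpl and Pparg, left few reads: their 10 markers summed to 1.19 to 3.85 CPM, and Adipoq, Plin1, Cidec, Cfd, Retn, Lep and Adrb3 were at 0 in some libraries. Cardiomyocyte markers summed to 170.4 to 307.0 CPM and were higher in flt3L-/- in each pair, by 0.77, 0.21 and 0.18. Macrophage and monocyte markers, with Lyz2 the most abundant, ranged from 44.2 to 1776 CPM and differed by 2.88, 0.70 and −4.09. Their part in the results was not tested either.

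**Figure D4:**
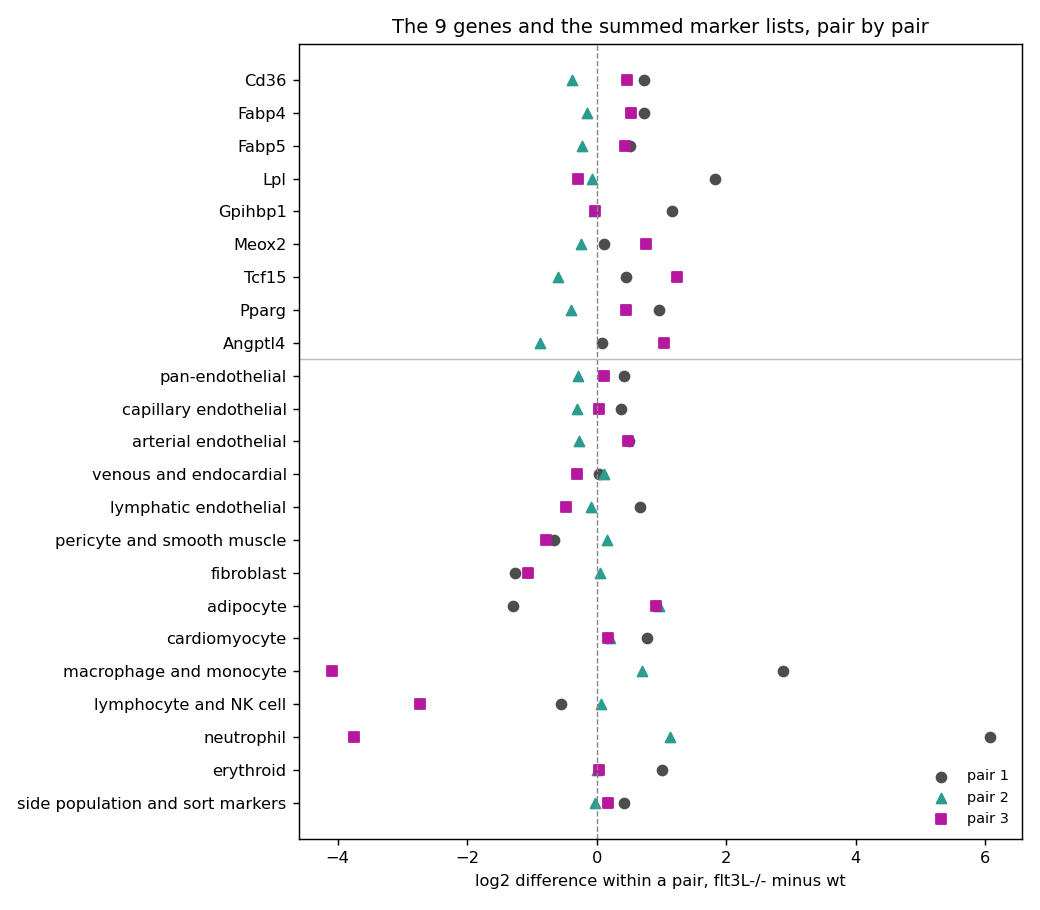
Log2 difference between flt3L-/- and wt within each pair, for the 9 genes (above the line) and for the summed CPM of marker lists (below). The pan-endothelial sum shares the signs of most of the 9 genes, and the fibroblast sum has the opposite signs.

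Set against the mean log2 level of the pan-endothelial markers, which itself differed by 0.51, −0.20 and 0.22, each difference of the 9 genes was lower by the mean of these, 0.17, by construction. Cd36 differed by 0.099 ± 0.24 (mean and SD over 3 pairs), Fabp4 by 0.19 ± 0.14 and Fabp5 by 0.072 ± 0.14. The level of Fabp4 relative to these markers was higher in flt3L-/- than in wt in each pair, by 0.21, 0.045 and 0.32. No other of the 9 genes kept its sign over the pairs. The share of all genes that do so was not computed for this measure. Without this reference, 14.2% of all genes were higher in every pair. Lpl differed by 0.32 ± 0.92, Gpihbp1 by 0.19 ± 0.45 and Pparg by 0.17 ± 0.33. For Meox2 (0.032 ± 0.48), Tcf15 (0.19 ± 0.74) and Angptl4 (−0.089 ± 0.81) the SD exceeded the mean as well. These relative values are a description without a test.

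Sorting date was also tested as a factor, with both genotypes in the fit. edgeR called none of 13475 genes by date (0%), had 1116 (8.28%) at an unadjusted p under 0.05, and placed none of the 9 genes there, while DESeq2 called 389 genes, again none of the 9. Tcf15 had the largest log2 difference from the first date to the third, −1.44 (edgeR adjusted p = 0.602, DESeq2 adjusted p = 0.107). Fabp4 (0.86) and Fabp5 (0.79) had differences of the opposite sign over the same dates (edgeR adjusted p = 0.602 for each). So did all the others: Gpihbp1 (0.64), Meox2 (0.56), Cd36 (0.52), Angptl4 (0.35), Lpl (0.34) and Pparg (0.11). The unadjusted DESeq2 p of the date was 0.0115 for Fabp4, 0.0309 for Fabp5 and 0.00499 for Tcf15, and 1587 of 13475 genes were under 0.05. The adjusted DESeq2 p was 0.177 for Fabp4 and 0.324 for Fabp5. Pairs 1 and 2 were sorted 2 days apart in August 2016, and pair 3 in August 2017.

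Likeness of pattern was measured as the root mean square difference of log2 CPM over the 6 libraries, each gene centred on its own mean. Fabp4 and Fabp5 were the closest pair of the 9, at 0.091, with Abi3 nearer to each of them (0.070 and 0.059). Cd36 was 0.16 from Fabp4 and 0.19 from Pparg, and nearest to Tmem140 (0.053) and Clec1a (0.060). Lpl and Gpihbp1 were 0.23 apart. Nearest to Lpl were Syn2 and Sult1a1 (0.13 each), and nearest to Gpihbp1 were Txnip (0.081) and S1pr1 (0.10). Tcf15 stood alone, at 0.84 from Pparg, the nearest of the 9, and at 0.89 from its partner Meox2. Meox2 lay closest to Myct1 (0.033), Tcf15 to Riox1 (0.14), Pparg to Apon (0.11) and Angptl4 to Aurka (0.11). With 6 libraries and 13475 genes, close matches of this kind are a description only.

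Around the 9 genes, lists of the same pathway showed no called gene either. Over all genes, 14.2% were higher and 11.5% lower in every pair, and for 6.45% the groups did not overlap. Some genes of each list were named for their small p. That choice favours the same sign in every pair and groups without overlap. Leaving out single pairs turned the sign of the median of 5 of the 8 lists, all but vessel-wall lipolysis, fatty acid transport and lipid droplets. Of the other genes of triglyceride lipolysis at the vessel wall, 10 of 17 passed the filter on low counts, 4 with fitted values above 0 and 6 below, with a median of −0.14, which was −0.30 both without pair 2 and with the other quasi-likelihood setting of edgeR (legacy = FALSE). The lipoprotein receptor Lrp1 was at 629.8, 414.2 and 318.3 CPM in wt and at 387.6, 443.8 and 96.6 CPM in flt3L-/-, a log2 fold change of −0.77 ± 0.37 (SE, edgeR adjusted p = 0.973). Apoe, a lipoprotein component, had −0.47 ± 0.36 and the heparan sulfate proteoglycan Sdc4 −0.50 ± 0.28. Like the fibroblast sum, all 3 were lower in pairs 1 and 3 and higher in pair 2. Angptl8, Apoa5, Apoc1, Apoc3, Lipc and Lipg were among those too low to be tested.

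Among genes of fatty acid transport and activation, 15 of 24 were tested, 8 above 0 and 7 below, with a median of 0.049. Cav1, which builds caveolae, was at 1911, 2749 and 2702 CPM in wt and at 2699, 2384 and 3667 CPM in flt3L-/-, with pair differences of 0.50, −0.21 and 0.44 like those of Cd36. Fabp3, the carrier of heart muscle, was at 9.65 ± 3.13 CPM in wt (SD, n = 3) and higher in flt3L-/- in each pair (0.76, 0.44 and 0.18; log2 fold change 0.46 ± 0.21, edgeR adjusted p = 0.973), as the cardiomyocyte markers were. The transporter Slc27a6 stood at 0.254 to 1.94 CPM and was lower in each pair (−1.14, −2.03 and −0.38; edgeR adjusted p = 0.973).

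The PPAR receptors, partners and cofactors had 16 of 17 genes tested, 8 above and 8 below 0, with a median of 0.014. Ppara, the receptor that governs fatty acid oxidation in muscle and liver, was not tested. The coactivator Ppargc1a (1.99 ± 0.72 CPM in wt and 1.10 ± 0.45 in flt3L-/-, SD, n = 3) and Ncoa2 (54.8 ± 3.73 and 41.8 ± 11.7 CPM) were lower in each pair, with log2 fold changes of −0.86 ± 0.40 and −0.43 ± 0.20 (edgeR adjusted p = 0.973 for each). The more abundant Ncoa3 and Ncor1 had 0.053 ± 0.22 and −0.18 ± 0.41.

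Of PPAR target genes besides the 9, 17 of 22 were tested, 8 above and 9 below 0, with a median of −0.010. Aqp7, a glycerol channel, was at 603.2, 860.6 and 709.6 CPM in wt and at 607.2, 695.0 and 769.0 CPM in flt3L-/-, a log2 fold change of −0.061 ± 0.16 (SE). The fatty acid hydroxylase Cyp4b1 differed by 0.42 ± 0.25 (edgeR adjusted p = 0.973), with pair differences of 0.62, −0.21 and 0.85.

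All 18 genes of signals upstream of endothelial fatty acid uptake were tested, 8 above and 10 below 0, with a median of −0.046. Apln, an endothelial peptide ligand, was at 8.93, 10.7 and 10.9 CPM in wt and at 11.1, 13.2 and 27.1 CPM in flt3L-/-, so the groups did not overlap, and its log2 fold change was 0.64 ± 0.28 (edgeR adjusted p = 0.973). Dll4, a Notch ligand of endothelium, also did not overlap (230 to 250 CPM in wt, 254 to 484 CPM in flt3L-/-, 0.49 ± 0.23, edgeR adjusted p = 0.973). Both genes were named for the smallest p of their list, a choice that favours groups without overlap. The groups did not overlap for 6.45% of all genes. The receptors Nrp1 and Flt1 differed by 0.050 ± 0.19 and 0.12 ± 0.24.

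Mitochondrial beta oxidation had 19 of 19 genes tested, 11 above and 8 below 0, with a median of 0.012. Cpt1a, the gate enzyme of fatty acid entry into mitochondria, was at 178 ± 9.30 CPM in wt and 149 ± 41.1 CPM in flt3L-/- (SD, n = 3), a log2 fold change of −0.30 ± 0.18 (edgeR adjusted p = 0.973). Cpt2 (0.30 ± 0.23) and Acadvl (0.025 ± 0.17) lay on the other side of 0.

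For lipid droplets and intracellular lipolysis, 16 of 17 genes were tested, 11 above and 5 below 0, with a median of 0.15. Mgll, which splits monoglycerides, was at 511.7, 730.3 and 885.2 CPM in wt and at 836.6, 781.3 and 1206 CPM in flt3L-/-, higher in each pair with a log2 fold change of 0.42 ± 0.18 (edgeR adjusted p = 0.973). Pnpla2, the triglyceride lipase of the cell interior, was higher in each pair too (1.14, 0.11 and 0.040). Lpin1, which makes diglycerides, was lower in each pair without overlap of the groups (−0.50 ± 0.26). Mgll and Lpin1 were named for the smallest p of this list, a choice that favours such values.

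The homeobox and bHLH partners of Meox2 and Tcf15 had 9 of 11 genes tested, 5 above and 4 below 0, with a median of 0.13. Id1 and Id3, inhibitors of bHLH factors, were higher in each pair without overlap of the groups. Of all genes, 14.2% were higher in every pair, and 6.45% had no overlap of the groups. Id1 was at 755 to 933 CPM in wt and at 936 to 1138 CPM in flt3L-/- (0.29 ± 0.14), and Id3 at 1821 to 2239 CPM and 2269 to 2649 CPM (0.29 ± 0.15, edgeR adjusted p = 0.973 for both). Tcf12, a general bHLH partner, was lower in each pair (−0.31 ± 0.16).

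**Figure D5:**
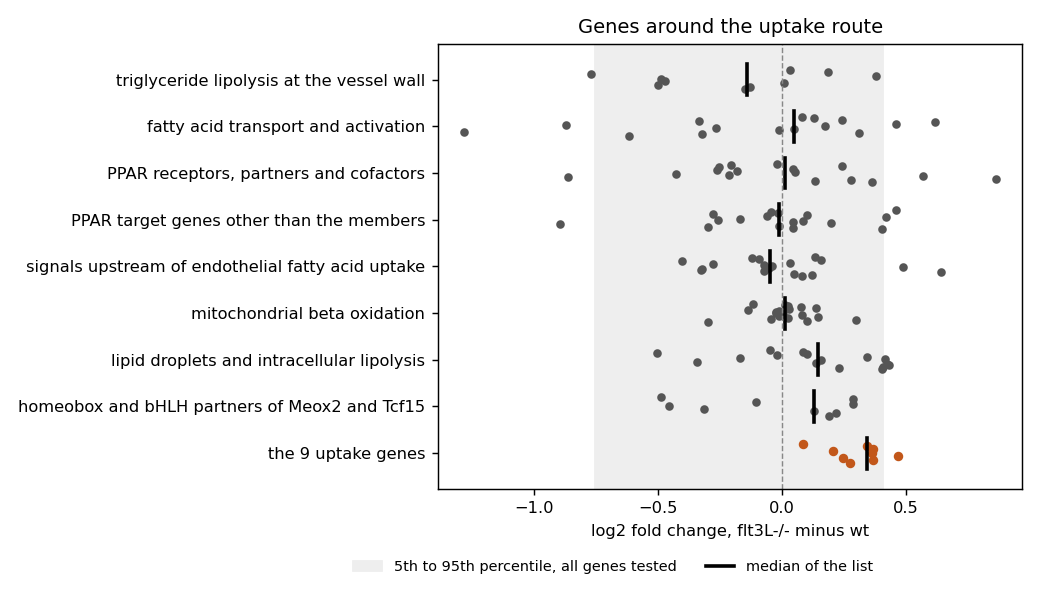
Fitted log2 fold change (flt3L-/- minus wt) of each tested gene of the 8 lists and of the 9 uptake genes, with the median of each list as a black bar; the grey band spans the 5th to the 95th percentile of all 13475 genes (−0.75 to 0.41). List medians lie between −0.14 and 0.15, and that of the 9 genes is 0.34.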

How the data were processed

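RNA of sorted cardiac SP cells was made into unstranded SMART-Seq v4 libraries by the authors and sequenced as single reads of 81 bases. Reads were mapped to mm10 with STAR 2.5.2a (FastQC 0.11.3 is also named in the submitters' processing notes), with random placement among equally good hits, and reads starting in an Ensembl exon were counted with QuasR. The deposited values are these raw counts per gene, not normalized.

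From the counts, genes were limited to protein-coding ones that passed 1 CPM in 2 or more libraries (13475), and genotype was tested with edgeR 4.0.16 (TMM, glmQLFit and glmQLFTest, legacy = TRUE, R 4.3.3) with the sorting date as a block. The block follows the study's methods, which state paired sorts on separate days, and the dates in the labels. After removal of group means the same-date libraries correlated at 0.180, 0.104 and 0.116, and others at −0.354 to 0.247. The highest of the others exceeded every same-date value, and removal of group means lowers correlations within a genotype. These correlations therefore do not decide the pairing. Nothing in the sources ties a library to single mice. With the block, genotype p-values measure how the difference between the genotypes spreads over the pairs of pools, not over mice. DESeq2 1.42.0 was an alternative. P-values were adjusted over all of these by the Benjamini-Hochberg method, with a threshold of 0.05; within-pair differences used a prior count of 2, and intervals are at 95%. No library was a copy of another (r 0.914 to 0.976). The edgeR tests were also run on simulated counts, which were built from the fit to these libraries. Gene models were from GENCODE for GRCm38, which lacked 224 counted genes; 91.5% to 93.8% of counts were protein-coding. TPM used all counted genes and the union of exon bases.

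The 9 genes and all lists were chosen with earlier results of these data known. Named genes are the 9, the 2 most abundant and the 2 with the smallest p of each list, the most abundant marker of each list, the nearest 2 genes in pattern, and related pseudogenes; Pecam1 and Abcg2 were added as markers of the sort. Some genes of the lists are not reported here. Alternatives were other normalizations, tools, filters, biotypes, no block, each pair left out, and other lengths.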

Additional observations from a re-analysis of the deposited data

How the results depend on the processing

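Under the alternatives that kept all libraries, 20 of the recomputed values moved. This meant a change beyond the spread between pairs or, for counts, by over 1.5 times. For levels per length it meant a change beyond the SD over the 6 libraries. The other 211 did not move or, as fold changes of the 9 genes, kept their sign and stayed uncalled. A kept sign does not make them close. Without the replicate block of paired dates, Tcf15 went from 0.37 to 0.19 and Angptl4 from 0.087 to 0.23, and the vessel-wall lipolysis median from −0.14 to −0.21 (−0.30 with legacy = FALSE). Medians near 0 changed sign for PPAR receptors (−0.028 with filterByExpr), PPAR targets (0.070 without a filter) and beta oxidation (−0.027 with library sizes only). DESeq2 called 21 genes by genotype and 389 by date, where edgeR called 0. Without the replicate block, 262 genes had an unadjusted p under 0.05 by genotype in place of 484. The median of the lipid droplet list (0.15) became 0.11 with library sizes only, 0.16 without a filter, 0.14 with filterByExpr, 0.14 with all biotypes and 0.21 without the block of paired dates. With only protein-coding genes in the total, mean levels per length were 6352 TPM for Cd36, 2344 for Fabp4, 80.4 for Fabp5, 777 for Gpihbp1, 129 for Meox2, 152 for Pparg and 60.9 for Angptl4. With the longest protein-coding transcript (chosen after seeing the data) Fabp4 had 6795 TPM, Fabp5 168, Lpl 421 and Meox2 74.5, and with the longest transcript Lpl had 442. The addition of the reads of its copies to Fabp5 was also chosen after seeing the data.

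Leaving out each pair in turn, the log2 fold change ranged from 0.041 to 0.58 for Cd36, 0.19 to 0.61 for Fabp4, 0.11 to 0.46 for Fabp5, −0.18 to 0.88 for Lpl, −0.031 to 0.57 for Gpihbp1, −0.072 to 0.41 for Meox2, −0.069 to 0.83 for Tcf15, 0.030 to 0.69 for Pparg and −0.39 to 0.54 for Angptl4. The sign turned without pair 1 for Lpl (−0.18) and Gpihbp1 (−0.031), and without pair 3 for Meox2 (−0.072), Tcf15 (−0.069) and Angptl4 (−0.39); fewer libraries entered these fits, and the cause was not tested. Genes with an unadjusted p under 0.05 numbered 249 (without pair 3) to 980 (without pair 2), with 4 of the 9 genes among them only without pair 2, and genes called by date 0 to 112 (without pair 2). List medians ranged from −0.30 to −0.083 for vessel-wall lipolysis, 0.056 to 0.16 for fatty acid transport, −0.23 to 0.12 for PPAR receptors, −0.035 to 0.087 for PPAR targets, −0.16 to 0.12 for upstream signals, −0.052 to 0.055 for beta oxidation, 0.049 to 0.14 for lipid droplets and −0.044 to 0.18 for the partners of Meox2 and Tcf15. With 3 pairs, a log2 fold change of the size seen here could not be told from 0, and 4 mice were pooled in each library.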
